A study of Homo sapiens with 9 samples.

Results

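The genes described here are 43 parts of the autophagy machinery and its cargo receptors, chosen by name from the 45754 genes of an RNA sequencing table. The list holds the initiation kinase complex, the lipid kinase complex and its effectors, lipid transfer proteins and scramblases, the conjugation enzymes, the ATG4 proteases, the ATG8 family, and cargo and mitophagy receptors. All 43 were found in the table and passed the filter on low values, which asked for at least 1 FPKM in at least 3 libraries. FPKM relates fragments to gene length and to library size, so it shows each gene's part of the RNA and no amount per cell. Of the 43 genes, 41 lie on chromosomes, and the rows of SQSTM1 and ATG16L1 are placed on other sequences of the assembly and are uncertain.

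Human lung cancer cells labelled H441 were exposed for 24 h to 10 µM BSGL, to 10 µM RSGL, or to 0.1% DMSO as control, with 3 libraries in each of 3 groups. Both compounds are known here by these names only, and no deletion, transgene or further agent is named for any group. Labels conflict on the cells: a genotype tag reads A549 in the RSGL libraries and H460 in the control and BSGL libraries, so for each difference of RSGL the compound and the labelled genotype cannot be told apart. The labels do not say that the replicates were separate cultures, and p-values measure the spread between these libraries only, which may be technical. Libraries held 16720414 to 18738947 fragments in genes. Of 9 lung lineage genes for which H441 is known, 0 were tested and the highest value was 1.00 FPKM, with summed levels of 0.774 to 1.18 FPKM in control, 1.06 to 1.15 in BSGL and 0.826 to 1.19 in RSGL. Of 12 genes high in lines with mutant KEAP1, 11 were tested, with sums of 4286 to 4395 FPKM in control, 3999 to 4082 in BSGL and 2366 to 2444 in RSGL.

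Autophagy encloses cytoplasm in a double membrane that closes into an autophagosome and fuses with lysosomes. The ULK1 complex starts the process, a class III lipid kinase complex around BECN1 makes the phosphoinositide PI3P, WIPI proteins bind PI3P, and conjugation enzymes attach ATG8 proteins such as LC3 to the membrane, where receptors tether their cargo. The pathway is regulated both on its proteins and by transcription of its genes, and a transcript level does not measure how much material is degraded.

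In the RSGL libraries 4 of these genes were higher than control by at least 0.5 on the log2(FPKM + 1) scale: WIPI1, MAP1LC3B, OPTN and ATG7. They sit at different steps, namely PI3P reading, the ATG8 family, cargo binding and conjugation. The added 1 understates changes of low genes. UVRAG, at 1.96 FPKM in control and 2.86 in RSGL, differed by 0.38 here and by up to 0.54 among 18 alternatives in processing. In all, 21 of the 43 genes (48.8%) rose and 3 (6.98%) fell against control, called with limma at an adjusted p under 0.05. Over all 12775 tested genes, 27.2% were called higher and 27.6% lower. The median difference of the 43 genes was 0.17 on the log2(FPKM + 1) scale, beside -0.00085 over all tested genes, and the range ran from -0.26 to 1.27. Of the members, 30 had a value above 0. With the 2 rows off the chromosomes left out, the median of the other 41 was 0.10. Called higher by at least 0.5 were 4 of the 43 members, a share near the 7.9% of all tested genes. By that much 0 members were called lower, where 7.26% of all genes were. No overlap between the RSGL and control libraries was seen for 21 members on the higher side and 6 on the lower side, where 30.4% and 30.8% of all tested genes had none. In the BSGL libraries 0 of the 43 genes were called in either direction.

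**Figure D1:**
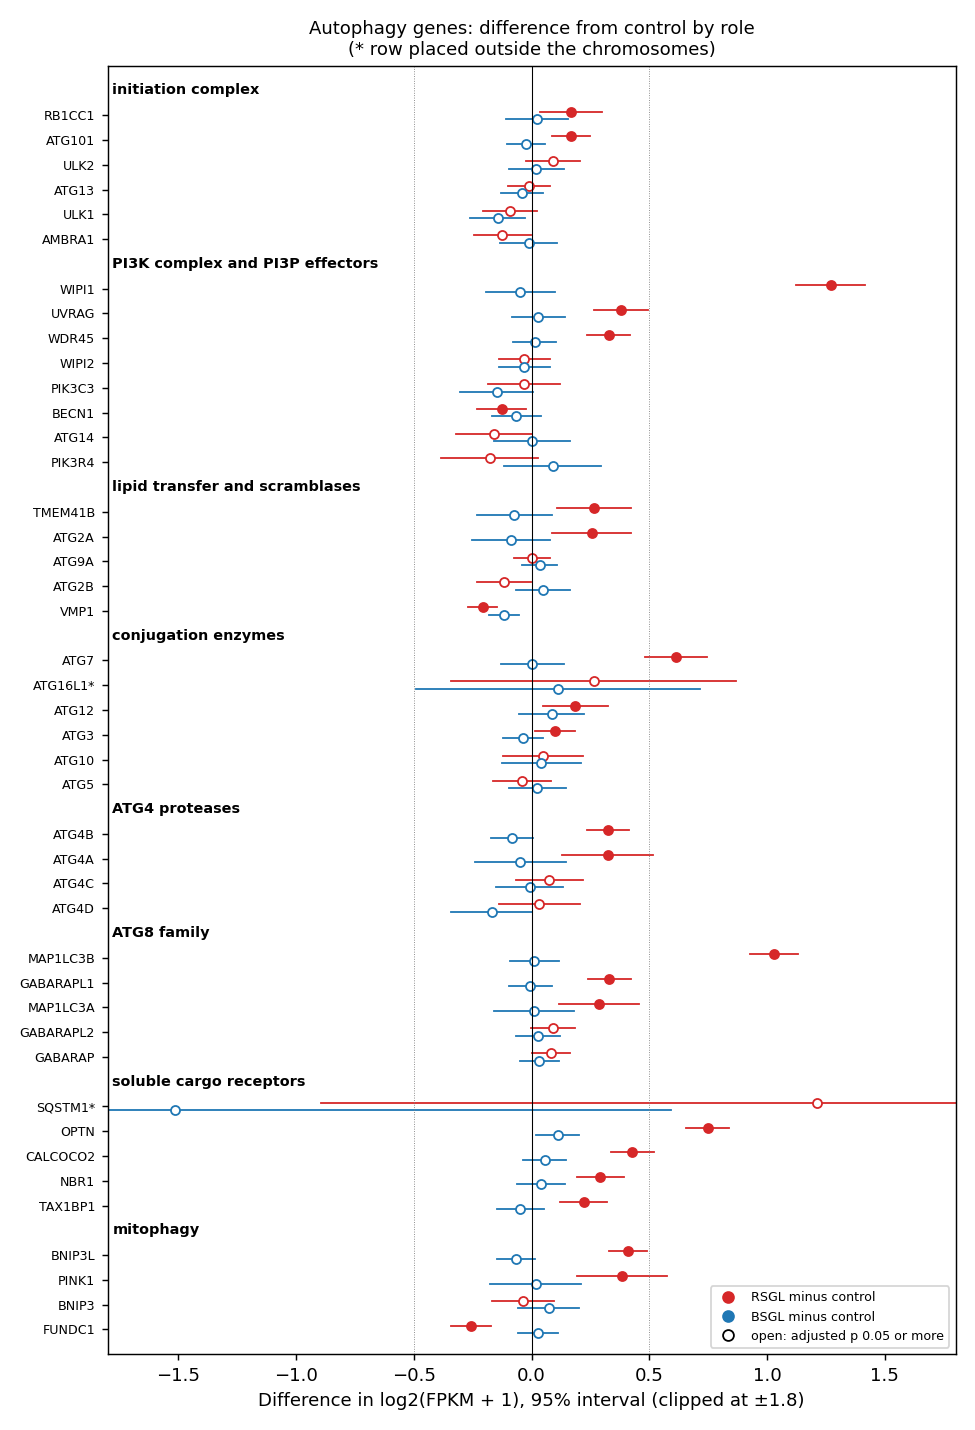
Differences from control in log2(FPKM + 1) for all 43 genes, grouped by role, with 95% intervals from the limma model (RSGL red, BSGL blue, filled where the adjusted p is under 0.05, n = 3 libraries per group). WIPI1 at 1.27 and MAP1LC3B at 1.03 stand farthest to the right among the filled points, all BSGL points are open, and the intervals of SQSTM1 and ATG16L1 are the widest.

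WIPI1 codes for a propeller-shaped protein that binds PI3P on the forming membrane (chromosome 17, 68421281 to 68457524, minus strand, positions as in the deposited table). Its levels were 2.88, 2.87 and 2.49 FPKM in the control libraries, 2.57, 2.80 and 2.48 in BSGL, and 7.94, 7.54 and 8.62 in RSGL. The 3 RSGL libraries lay far above the other 6, whose ranges overlapped. The mean FPKM was 2.93 times that of control, and the log2 difference was 1.27 (SE 0.0654, 95% interval 1.12 to 1.42, adjusted p = 1.86e-07). On the opposite strand WIPI1 overlaps PRKAR1A, at 75.8 FPKM in control and 69.6 in RSGL, and ARSG, at 0.895 and 1.73 FPKM. Whether the counting used strand is not given in the sources at hand, so reads of the 2 strands may be mixed here, and their part in the WIPI1 value was not tested. The relative WIPI2, which acts upstream of LC3 conjugation, averaged 12.3 FPKM in control, 12.0 in BSGL and 12.0 in RSGL (log2 difference of RSGL -0.03, adjusted p = 0.618). WIPI2 thus stayed the more abundant of both in each group.

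MAP1LC3B codes for LC3B, the ATG8 protein most used as a marker of autophagosomes (chromosome 16, 87392195 to 87404774, plus strand). It stood at 17.4, 18.3 and 17.0 FPKM in control, 17.1, 17.4 and 18.6 in BSGL, and 38.1, 37.1 and 35.4 in RSGL. Control and BSGL libraries overlapped, and each RSGL library was above all of them. The mean was 2.10 times that of control (log2 difference 1.03, SE 0.0456, interval 0.93 to 1.13, adjusted p = 6.81e-08). MAP1LC3B2, a near-identical copy on chromosome 12, was at 0.722 FPKM in control and 2.50 in RSGL. Reads could be split between the copies, so the value of MAP1LC3B2 is uncertain.

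OPTN codes for optineurin, a receptor that links ubiquitinated cargo such as damaged mitochondria to ATG8 proteins (chromosome 10, 13100082 to 13138276, plus strand). Control libraries held 16.5, 16.1 and 16.5 FPKM, BSGL libraries 18.1, 18.0 and 17.1, and RSGL libraries 29.6, 27.7 and 27.2. All 3 groups lay apart from each other, with BSGL between control and RSGL. The RSGL mean was 1.72 times that of control (log2 difference 0.75, SE 0.0406, interval 0.66 to 0.84, adjusted p = 2.65e-07).

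ATG7, the E1-like enzyme that activates both ATG12 and the ATG8 proteins (chromosome 3, 11272324 to 11564704, plus strand), was at 3.40, 3.59 and 3.54 FPKM in control and at 3.78, 3.18 and 3.64 in BSGL. RSGL libraries gave 5.99, 6.10 and 5.63 FPKM. The lowest RSGL library exceeded the highest of the other 6. The mean was 1.68 times that of control (log2 difference 0.61, SE 0.0592, interval 0.48 to 0.75, adjusted p = 1.52e-05). VGLL4, which overlaps ATG7 on the opposite strand, was at 4.41 FPKM in control and 4.43 in RSGL.

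**Figure D2:**
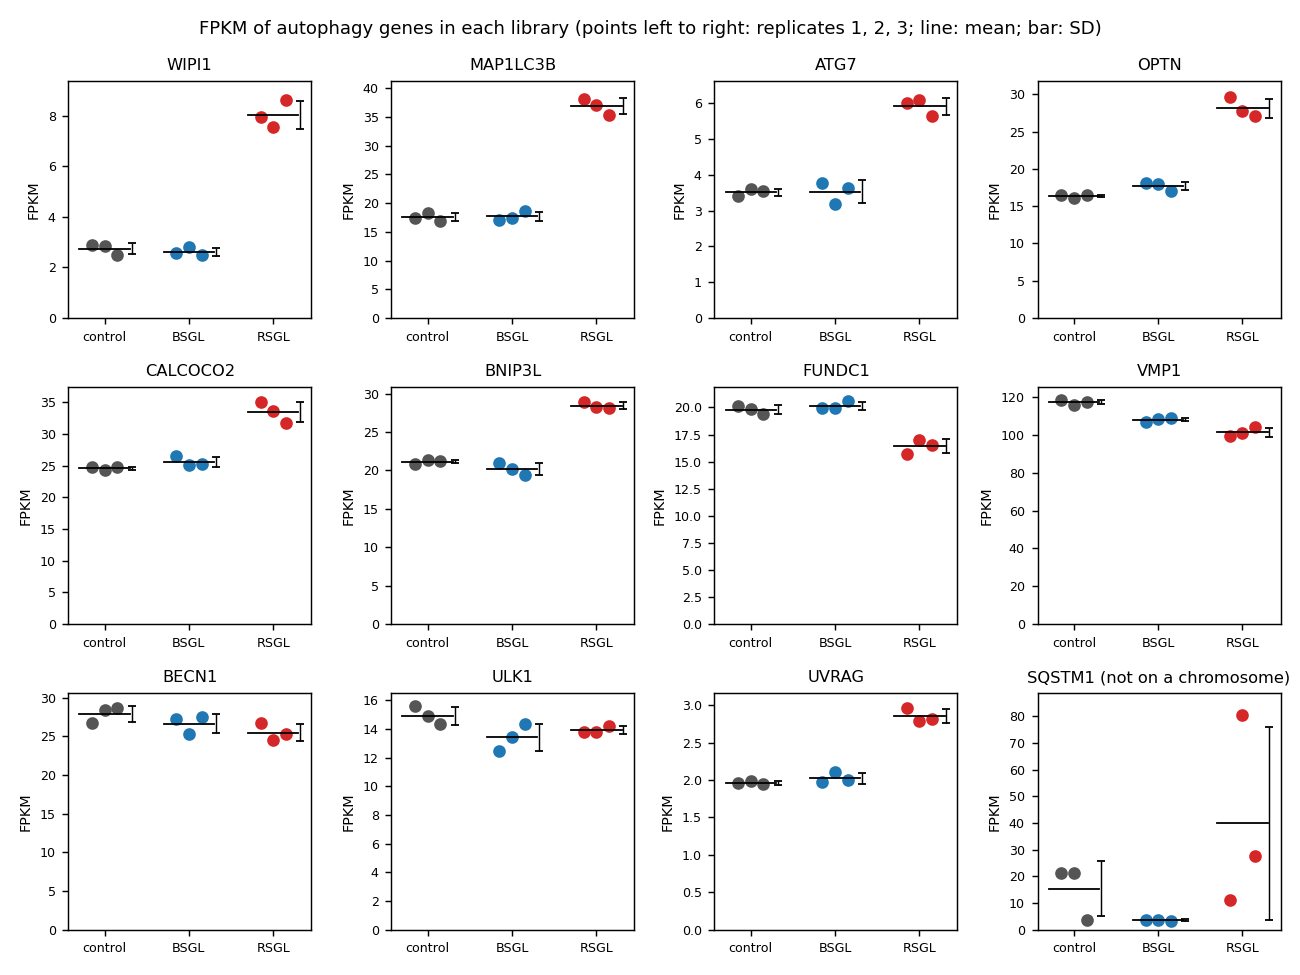
FPKM in each of the 9 libraries for 12 of the genes (points in replicate order, line for the mean, bar for the SD, n = 3), each panel on its own axis from 0; CALCOCO2, BNIP3L, FUNDC1, VMP1 and UVRAG were added after their values were seen. WIPI1, MAP1LC3B, ATG7 and OPTN are higher in all 3 RSGL libraries, FUNDC1 is lower, and SQSTM1 runs from 3.63 to 21.4 FPKM within control and from 11.3 to 80.6 within RSGL.

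The sequences just upstream of these 4 genes are shown because these are the members called with the largest differences. They are RefSeq sequences of GRCh38.p14 that end at the base before the gene's start in the deposited table, 5′ to 3′ on the gene's strand. Capitals mark GGGCGG, the GC box core to which factors such as SP1 bind, on either strand.
WIPI1, chr17:68457525-68457746, minus strand: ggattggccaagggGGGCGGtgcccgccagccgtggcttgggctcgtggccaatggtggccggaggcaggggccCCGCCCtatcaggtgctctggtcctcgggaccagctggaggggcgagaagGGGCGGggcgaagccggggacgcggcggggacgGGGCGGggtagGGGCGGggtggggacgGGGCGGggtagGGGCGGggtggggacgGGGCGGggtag
MAP1LC3B, chr16:87392086-87392194, plus strand: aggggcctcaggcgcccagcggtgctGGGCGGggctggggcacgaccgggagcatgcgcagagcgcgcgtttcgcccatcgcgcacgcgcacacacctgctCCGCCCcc
OPTN, chr10:13099832-13100081, plus strand: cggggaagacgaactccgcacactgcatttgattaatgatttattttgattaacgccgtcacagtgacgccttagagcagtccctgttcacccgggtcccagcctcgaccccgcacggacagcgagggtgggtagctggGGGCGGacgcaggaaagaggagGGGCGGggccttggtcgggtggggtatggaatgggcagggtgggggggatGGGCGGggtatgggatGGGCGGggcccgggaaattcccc
ATG7, chr3:11272147-11272323, plus strand: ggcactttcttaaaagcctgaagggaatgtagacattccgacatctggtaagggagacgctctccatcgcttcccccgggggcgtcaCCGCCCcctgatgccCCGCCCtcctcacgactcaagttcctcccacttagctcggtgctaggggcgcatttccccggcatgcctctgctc

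The stretches hold 8 matches for WIPI1, 4 for OPTN, and 2 each for MAP1LC3B and ATG7. In WIPI1 the box recurs within a short repeat next to the start. GGGCGG was chosen after the WIPI1 sequence was seen. RefSeq windows of 250 bases before the start were at hand for 37 of the 43 genes, with 46 windows in all, since some genes have several starts. The box is in 31 of these 46 windows and in 42.6% of 35116 windows over all genes. The WIPI1 window of that length has 9 matches, and 0.285% of all windows have as many or more. As the box was picked from the WIPI1 sequence, that share is no test. The windows over all genes were not limited to genes that passed the filter on low values, as the members did.

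Motifs of stress and nutrient factors were searched on both strands in the same windows, whose 250 bases end at the RefSeq start and not at the start in the deposited table. For MAP1LC3B, ATG14 and GABARAPL1 the match lies inside the gene as the table bounds it. The matches are shown because these factors are known regulators of autophagy genes. TGATGNAA, the composite element of ATF4 and C/EBP factors, is in 3.14% of all windows and in those of 0 of the 37 genes. CACGTG, the E-box core to which TFEB and its relatives bind, is in 6.34% of all windows and in 3 of the members' 46 windows. TGACNNNGC, the core of the antioxidant response element, is in 10.9% of all windows and in 3 of the 46. For each of these 2 motifs the windows belong to 3 genes. TGACGTCA, the cAMP response element, is in 1.65% of all windows and in 1 of the 46. TGACGTCA and CACGTG share the letters ACGT, and each window below was matched by 1 of the 4 motifs, marked by capitals and read on the gene's strand (GRCh38.p14).
ATG14, chr14:55411834-55411863, CACGTG: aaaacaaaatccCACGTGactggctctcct
ATG3, chr3:112561963-112561992, CACGTG: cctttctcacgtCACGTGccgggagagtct
BNIP3, chr10:131982040-131982069, CACGTG: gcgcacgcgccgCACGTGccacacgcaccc
MAP1LC3B, chr16:87392280-87392309, TGACNNNGC: gcgagtcaccTGACCAGGCtgcgggctgag
CALCOCO2, chr17:48830896-48830925, TGACNNNGC on the reverse strand: cgctcctgggGCCCGGTCAcctgaacacta
ATG101, chr12:52069848-52069877, TGACNNNGC: tgtgcttctgTGACTACGCggatgttgtgg
GABARAPL1, chr12:10212836-10212865, TGACGTCA: ggctcgcggggTGACGTCAcagcccgacgc

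A match is a run of letters and not a measured site. Of the 3 genes with CACGTG, ATG3 was called higher in RSGL and ATG14 and BNIP3 were not called. The 3 genes with TGACNNNGC and the 1 with TGACGTCA were called higher, as were 21 of all 43 members, and a link between motif and rise was not tested.

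Among the 6 genes of the initiation complex 2 rose in RSGL and 0 fell, with a median of 0.04. Beside the counts of this and each role group below stand 27.2% of all tested genes called higher and 27.6% called lower. ATG101, which steadies the complex, rose from 45.9 ± 1.12 to 51.6 ± 1.64 FPKM (SD, n = 3; log2 difference 0.17, adjusted p = 0.00307). RB1CC1, the scaffold FIP200, rose by 0.17 with overlapping libraries (adjusted p = 0.0353). ULK1, the kinase that starts autophagy, stood at 15.6, 14.9 and 14.3 FPKM in control, 12.5, 13.5 and 14.4 in BSGL, and 13.8, 13.8 and 14.2 in RSGL. The RSGL values lay just under the control values without overlap, and the BSGL values spanned them. The log2 difference of ULK1 under RSGL was -0.09 (interval -0.21 to 0.02, adjusted p = 0.158). Its relative ULK2 differed by 0.09 (adjusted p = 0.16), the adaptor ATG13 by -0.01 and AMBRA1, a scaffold that links the kinase complexes, by -0.12 (adjusted p = 0.0753).

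Of the 8 genes of the lipid kinase complex and its effectors, 3 rose and 1 fell, with a median of -0.03. UVRAG, a BECN1 partner of the endosomal complex, rose from 1.96 ± 0.0263 to 2.86 ± 0.0915 FPKM (log2 difference 0.38, adjusted p = 0.000137). WDR45, another PI3P-binding propeller protein, rose from 17.6 ± 0.39 to 22.3 ± 0.533 FPKM (0.33, adjusted p = 8.18e-05). BECN1, the core of the complex (chromosome 17, 42810132 to 42824316, minus strand), was at 26.8, 28.4 and 28.6 FPKM in control, 27.2, 25.3 and 27.5 in BSGL, and 26.7, 24.5 and 25.2 in RSGL. The highest RSGL library lay just under the lowest control library. The difference of -0.13 (SE 0.0466) only just passed the test (adjusted p = 0.0415), and 10 of 18 alternatives lost the call. PIK3C3, the catalytic subunit, averaged 3.60 FPKM in control and 3.49 in RSGL. Its regulatory subunit PIK3R4 differed by -0.18 (adjusted p = 0.13), and ATG14, which directs the complex to autophagosome formation, by -0.16 (adjusted p = 0.0869).

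Lipid transfer proteins and scramblases supply and even out the lipids of the growing membrane. Of these 5 genes 2 rose and 1 fell, with a median of 0.00. ATG2A, a lipid transfer protein, rose from 5.83 ± 0.476 to 7.15 ± 0.411 FPKM (0.26, adjusted p = 0.0151), and TMEM41B, a scramblase of the endoplasmic reticulum, from 10.0 ± 0.377 to 12.3 ± 1.44 FPKM (0.27, adjusted p = 0.0095). VMP1, the partner scramblase and the second most abundant of the 43 transcripts, fell from 117 ± 1.17 to 102 ± 2.41 FPKM (-0.21, adjusted p = 0.000144). The scramblase ATG9A was at 14.9 FPKM in both groups, and ATG2B, the second ATG2 gene, differed by -0.12 (adjusted p = 0.0812).

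The conjugation enzymes gave 3 of 6 genes higher and 0 lower, with a median of 0.14. That median counts the uncertain row of ATG16L1 at 0.26 and would be lower without it. Beside ATG7, the ubiquitin-like ATG12 rose by 0.19 (adjusted p = 0.0275) and the E2-like ATG3 by 0.10 (adjusted p = 0.0458). Their libraries lay above all control libraries, by far less than those of ATG7. ATG5, to which ATG12 is joined, was at 10.2 FPKM in control and 9.87 in RSGL, and ATG10, the E2-like enzyme of that step, at 2.05 and 2.15 FPKM. Of the 4 ATG4 proteases, which trim ATG8 proteins before conjugation and release them afterwards, 2 rose and 0 fell. ATG4B went from 8.39 ± 0.136 to 10.8 ± 0.383 FPKM (0.32, adjusted p = 8.14e-05) and ATG4A from 4.24 ± 0.394 to 5.55 ± 0.491 (0.32, adjusted p = 0.00961). ATG4C and ATG4D differed by 0.07 and 0.03 and were not called.

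The ATG8 family gave 3 of 5 genes higher and 0 lower, with a median of 0.29. GABARAPL1 rose from 10.7 ± 0.217 to 13.7 ± 0.541 FPKM (0.33, adjusted p = 8.14e-05) and MAP1LC3A from 5.01 ± 0.53 to 6.31 ± 0.219 (0.29, adjusted p = 0.00941). GABARAP, the most abundant of the 43 transcripts, averaged 163 ± 6.6 FPKM in control, 167 ± 4.63 in BSGL and 173 ± 3.5 in RSGL (0.08, adjusted p = 0.0838). GABARAPL2 averaged 37.1, 37.9 and 39.6 FPKM (0.09, adjusted p = 0.0939). Summed over the 5 genes, FPKM came to 236.4, 226.6 and 237.0 in the control libraries, 234.8, 234.3 and 244.4 in BSGL, and 264.9, 275.3 and 266.9 in RSGL. MAP1LC3B made up 7.34, 8.09 and 7.16% of that sum in control, 7.28, 7.43 and 7.62% in BSGL, and 14.4, 13.5 and 13.3% in RSGL. GABARAP still held 63.9 to 64.5% of the sum in RSGL, beside 68.6 to 70.8% in control.

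**Figure D3:**
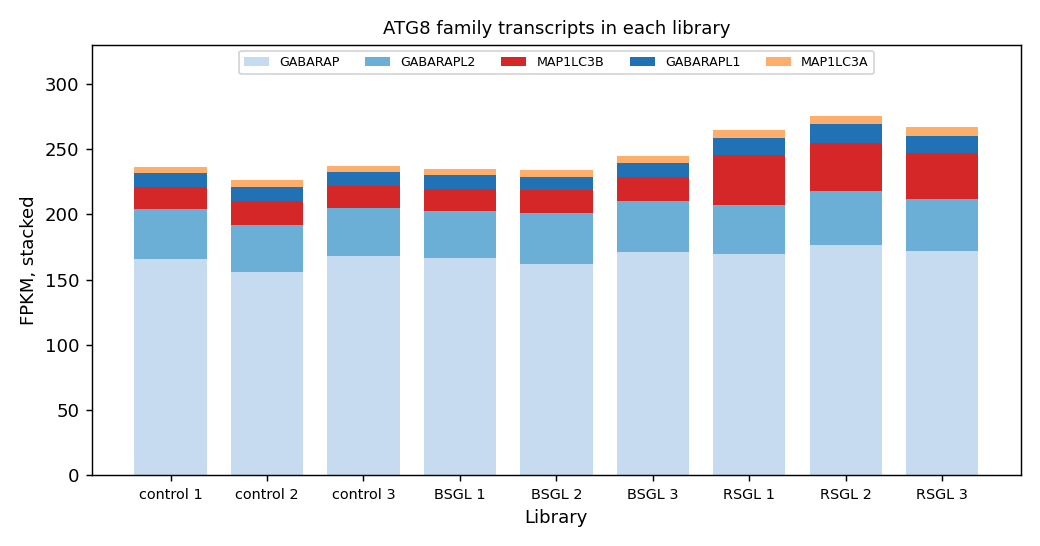
FPKM of the 5 ATG8 family genes stacked for each of the 9 libraries. The MAP1LC3B segment is 13.3 to 14.4% of the bar in the 3 RSGL libraries and 7.16 to 8.09% in the other 6, while GABARAP is the largest segment in all 9.

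Soluble cargo receptors bind ubiquitinated or damaged cargo with one part and ATG8 proteins with another. Of the 5 genes 4 rose and 0 fell, with a median of 0.43. That median counts the uncertain row of SQSTM1 at 1.21, the highest of the 5, and would be lower without it. Beside OPTN, CALCOCO2, the receptor NDP52, rose from 24.6 ± 0.267 to 33.5 ± 1.63 FPKM (0.43, adjusted p = 1.36e-05). NBR1, a receptor for ubiquitinated aggregates and peroxisomes, rose from 20.0 ± 0.801 to 24.7 ± 1.1 FPKM (0.29, adjusted p = 0.000376). TAX1BP1, a receptor related to CALCOCO2, rose from 39.3 ± 1.21 to 46.0 ± 2.18 FPKM (0.22, adjusted p = 0.00216).

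SQSTM1 codes for p62, the best known of these receptors, and its row is one of the doubtful ones. It gave 21.3, 21.4 and 3.63 FPKM in control, 3.82, 3.75 and 3.32 in BSGL, and 11.3, 80.6 and 27.7 in RSGL, from 633 to 14221 fragments. One control library thus lay with the BSGL libraries. In FPKM, though not as a ratio, the RSGL libraries differed among themselves by more than the means of the groups did. The difference of RSGL from control was 1.21 with an interval from -0.89 to 3.32 (adjusted p = 0.287). Between libraries of a group its SD was 1.10 on the log2 scale, rank 31 of 12775 tested genes. ATG16L1, which guides LC3 conjugation to the membrane, gave 1.77, 1.40 and 1.43 FPKM in control, 1.36, 2.57 and 1.43 in BSGL and 1.04, 2.65 and 2.75 in RSGL, with an SD of 0.35. For the other 41 members that SD ran from 0.0223 to 0.131 (median 0.0575). All 262 tested genes on sequences other than the chromosomes had a median SD of 0.279, and the 12513 on chromosomes 0.0716. For these 2 genes the direction of a difference from control cannot be read from the values, nor for ATG16L1 that of RSGL from BSGL.

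**Figure D4:**
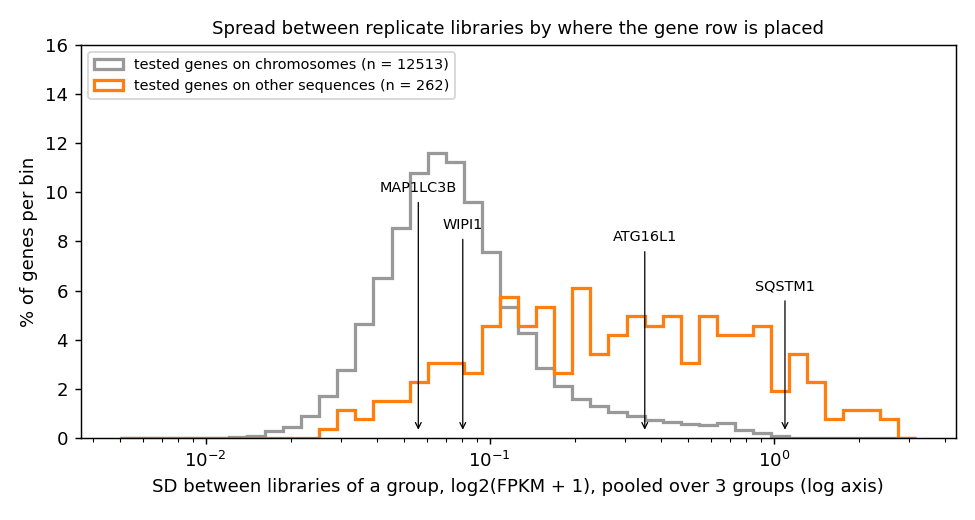
Histograms of the SD between libraries of a group in log2(FPKM + 1), pooled over the 3 groups (log axis), for 12513 tested genes on chromosomes and 262 on other sequences, with 4 of the autophagy genes marked. SQSTM1 at 1.10 and ATG16L1 at 0.35 lie to the right of the chromosomal genes' median of 0.0716, while WIPI1 and MAP1LC3B lie close to it.

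Of the 4 mitophagy genes 2 rose and 1 fell. BNIP3L, the receptor NIX on the outer mitochondrial membrane, rose from 21.1 ± 0.25 to 28.4 ± 0.422 FPKM (0.41, adjusted p = 7.45e-06). PINK1, the kinase that marks damaged mitochondria, rose from 5.25 ± 0.895 to 7.10 ± 0.136 FPKM (0.38, adjusted p = 0.0037). FUNDC1, another receptor of the outer membrane, fell from 19.8 ± 0.403 to 16.4 ± 0.663 FPKM (-0.26, adjusted p = 0.000283), the lowest difference among the members. BNIP3, the relative of BNIP3L, averaged 41.4 FPKM in control, 43.6 in BSGL and 40.4 in RSGL (adjusted p = 0.622).

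Ratios of related members within a library do not depend on how libraries are scaled, and 5 such pairs were set up after their values had been seen. WIPI1 over WIPI2 was 0.196 to 0.242 in control, 0.193 to 0.242 in BSGL and 0.606 to 0.734 in RSGL. MAP1LC3B over GABARAP was 0.101 to 0.118, 0.103 to 0.109 and 0.206 to 0.225 in the same order. BNIP3L over BNIP3 was 0.505 to 0.515 in control, 0.436 to 0.504 in BSGL and 0.653 to 0.742 in RSGL. ATG2A over ATG2B was 1.32 to 1.62 in control, 1.24 to 1.46 in BSGL and 1.94 to 2.12 in RSGL. ULK1 over ULK2 was 2.55 to 2.69 in control, 2.22 to 2.39 in BSGL and 2.11 to 2.49 in RSGL. In the first 4 pairs every RSGL library was above the other 6, and for ULK1 over ULK2 the BSGL and RSGL libraries overlapped, all below control. The exact two-sided permutation test of RSGL against control gave p = 0.1 for each of the 5, adjusted p = 0.1, which is the smallest that 3 libraries against 3 allow. As the pairs were chosen with their values seen, nothing is concluded from these p-values.

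Under BSGL the 41 genes on chromosomes stayed close to control. The intervals of SQSTM1, given below, and of ATG16L1 (-0.49 to 0.72) were too wide to say so. With limma 0 of the 43 genes were called higher and 0 lower, where 0.047% and 0.0391% of all tested genes were. With limma-voom on recovered fragments 0 were called as well. At an unadjusted p under 0.05 OPTN was higher and ULK1 and VMP1 were lower, against 3.53% and 3.18% of all tested genes. The differences of the 41 genes on chromosomes ran from -0.17 to 0.11, and their 95% intervals reached no lower than -0.34 and no higher than 0.29. OPTN differed by 0.11 (interval 0.02 to 0.20, adjusted p = 0.629), ULK1 by -0.14 (interval -0.26 to -0.03, adjusted p = 0.605) and VMP1 by -0.12 (interval -0.18 to -0.05, adjusted p = 0.341). BSGL and control libraries did not overlap for 4 members on the higher side and 3 on the lower, beside 7.16% and 5.63% of all tested genes. WIPI1 and MAP1LC3B, the largest rises under RSGL, differed by -0.05 (interval -0.19 to 0.10) and 0.01 (interval -0.09 to 0.11) under BSGL. For SQSTM1 the BSGL difference was -1.51 with an interval from -3.62 to 0.59 (adjusted p = 0.844).

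Set directly against BSGL at the same dose and time, RSGL was higher in 21 of the 43 genes and lower in 4, where 26.5% and 27.5% of all tested genes were called. The median difference was 0.14. Among the 41 genes on chromosomes 20 were higher and 4 lower, with a median of 0.14. The remaining higher gene was SQSTM1, whose row is uncertain. This comparison shares its RSGL libraries with the one against control. WIPI1 differed by 1.32 (adjusted p = 1.64e-07), MAP1LC3B by 1.02 (adjusted p = 8.16e-08), OPTN by 0.64 (adjusted p = 9.19e-07) and ATG7 by 0.61 (adjusted p = 1.75e-05). The 4 lower genes were FUNDC1 (-0.28, adjusted p = 0.000159), VMP1 (-0.09, adjusted p = 0.0198), PIK3R4 (-0.27, adjusted p = 0.0326) and ATG2B (-0.17, adjusted p = 0.0213). Of these FUNDC1 alone was left when BSGL replicate 2 or 3 was taken out, and 2 genes were left without RSGL replicate 2. SQSTM1 passed here with 2.73 (SE 0.871, adjusted p = 0.0369), and the call was lost without any 1 of the 3 BSGL libraries or without RSGL replicate 2 or 3 (adjusted p = 0.0798 to 0.0916).

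Levels of the 43 genes differed far more between genes than between groups. In control the group means ran from 1.53 to 163 FPKM with a median of 10.2, in BSGL from 1.78 to 167 with 9.86, and in RSGL from 2.14 to 173 with 12.0. At least 10 FPKM was reached by 24 members in control, 21 in BSGL and 24 in RSGL, and 10, 11 and 7 members were under 5 FPKM. In control GABARAP and VMP1 led the order, followed by ATG101 at 45.9 ± 1.12, BNIP3 at 41.4 ± 0.805, TAX1BP1 at 39.3 ± 1.21 and GABARAPL2 at 37.1 ± 0.857 FPKM. WIPI1, the gene with the largest rise, was among the 10 under 5 FPKM in control.

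Other genes of the pathway were followed in 5 lists of 129 genes, of which 111 were tested. RSGL was higher than control for 49 and lower for 18, with a median difference of 0.07, beside the 27.2% and 27.6% of all tested genes. BSGL gave 0 calls with limma, with 2 higher and 2 lower at an unadjusted p under 0.05. Of the late steps, which fuse autophagosomes with lysosomes, 10 of 18 tested genes rose and 0 fell. RAB7A, the GTPase of late endosomes, rose from 77.5 to 103.4 FPKM (0.41), RUBCN, an inhibitor of the UVRAG complex, from 1.36 to 2.16 (0.42), and NRBF2, a regulator of the ATG14 complex, from 11.4 to 15.1 (0.38). Of 14 tested further ATG family and core genes 4 rose and 4 fell. ATG16L2, a relative of ATG16L1, rose from 1.47 to 2.61 FPKM (0.55), and HMGB1, a chromatin protein that can bind BECN1, fell from 79.1 to 60.8 (-0.37).

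Further receptors and adaptors gave 9 of 23 tested genes higher and 4 lower, beside 27.2% and 27.6% of all tested genes. RETREG1, a receptor for the endoplasmic reticulum, rose from 1.02 to 2.15 FPKM (0.64), CCPG1, another, from 1.86 to 3.35 (0.60), and CALCOCO1, a relative of CALCOCO2, from 7.90 to 10.9 (0.42). The next 4 genes were named after their values were seen. ATL3, also a receptor for the endoplasmic reticulum, fell by 0.27, and TEX264 and RETREG3, of the same kind, differed by 0.03 and 0.08 and were not called. NCOA4, the ferritin receptor, fell from 40.8 to 33.2 FPKM (-0.29, adjusted p = 5.03e-05).

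The list of upstream kinases and nutrient sensing gave 18 of 38 tested genes higher and 4 lower, with a median of 0.11. Over all tested genes 27.2% were called higher and 27.6% lower. Among the listed genes were those of the Rag GTPases, which bring mTORC1, a kinase that restrains ULK1, to the lysosome. RRAGD rose from 1.02 to 3.60 FPKM (1.19, adjusted p = 3.02e-07) and FLCN, a GTPase activator for RRAGC and RRAGD, from 7.88 to 15.5 (0.89, adjusted p = 9.7e-07). CASTOR2, a relative of CASTOR1, fell from 2.39 to 0.783 FPKM (-0.93, adjusted p = 1.31e-06). Chosen after their values were seen, RRAGC rose by 0.84, RRAGA by 0.77 (the remaining Rag gene, RRAGB, differed by 0.05, adjusted p = 0.448), the FLCN partner FNIP1 by 0.61 and the arginine sensor CASTOR1 by 0.72. DDIT4, a stress-induced inhibitor of mTORC1, also named afterwards, rose from 153 to 252 FPKM (0.72).

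Of 18 tested transcription factors of autophagy genes 8 rose and 6 fell, with a median of 0.02. Of all tested genes 27.2% rose and 27.6% fell. DDIT3, the stress factor CHOP, rose from 14.0 to 61.5 FPKM (2.06), CEBPB from 39.1 to 109 (1.46) and ATF4, the main factor of the amino acid response, from 111 to 200.4 (0.85, adjusted p = 3.54e-07). TFEB, a factor of lysosomal and autophagy genes, fell from 2.07 to 1.35 FPKM (-0.39, adjusted p = 0.00476), and its relative TFE3 stood at 33.9 and 33.6 FPKM (adjusted p = 0.833). MITF, of the same family and named after its value was seen, rose from 1.96 to 2.86 FPKM (0.38). E2F1, a cell cycle factor, fell from 29.9 to 18.4 FPKM (-0.67) and ATF5, a relative of ATF4, from 17.4 to 11.9 (-0.52), both named after their values were seen. FOXO3, a factor that drives autophagy genes in starved muscle, rose from 1.69 to 2.44 FPKM (0.35, adjusted p = 0.000984).

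**Figure D5:**
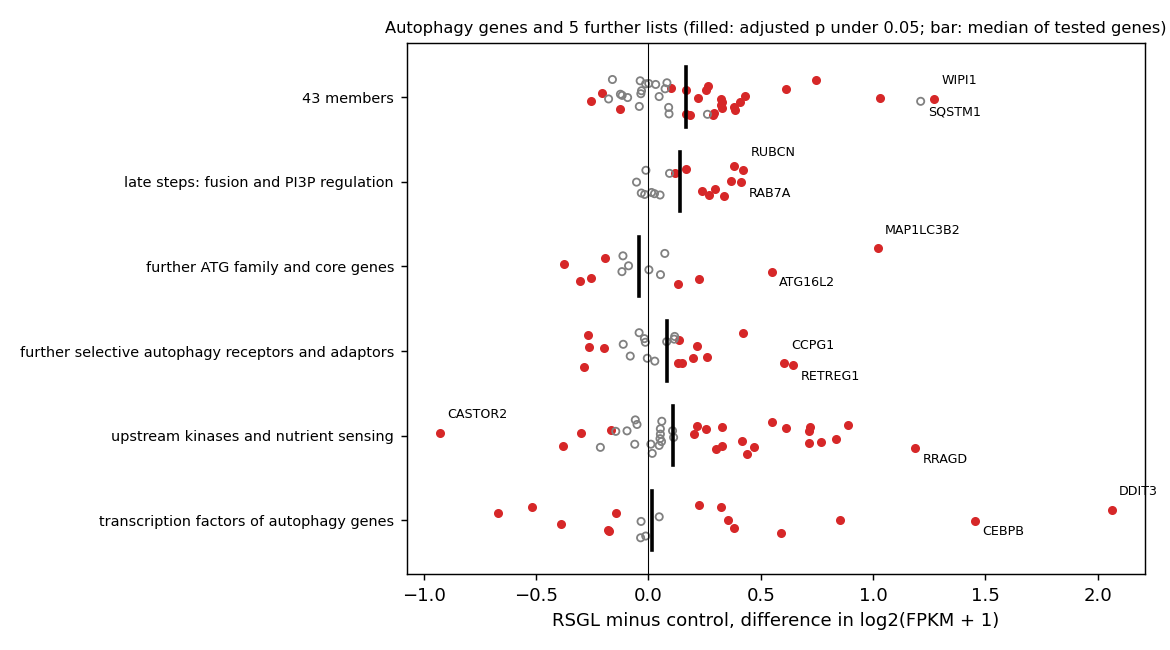
Differences of RSGL from control in log2(FPKM + 1) for the tested genes among the 43 members and in 5 further lists, 1 point per gene (filled where the adjusted p is under 0.05), with a bar at each list's median and the 2 largest differences named. The members' median is 0.17, and DDIT3 at 2.06 and CEBPB at 1.46 are the points farthest to the right.

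Of 7 macrophage markers 2 were tested, with sums of 42.2 to 42.7 FPKM in control, 46.6 to 47.8 in BSGL and 116.5 to 121.5 in RSGL, almost all from CD68, a lysosomal protein that other cells also make. The highest single value of a macrophage marker in any library was 121.1 FPKM, beside the highest RSGL sum of 121.5. AIF1 was at 0 in all 9 libraries, and CD163 and LYZ were at 0.0343 FPKM or lower. The second tested marker is not among these 3, and its direction is not given here, so the sums show the course of CD68 only. Fibroblast markers, 3 of 8 tested, summed to 9.95 to 11.4 FPKM in control, 10.4 to 11.1 in BSGL and 7.92 to 8.20 in RSGL, and of 6 endothelial and 5 T cell markers 0 were tested. In bulk RNA fewer cells of a type and less RNA per cell cannot be told apart, and the part of these markers in the members' differences was not tested. An opposite-strand gene of at least 1 FPKM overlapped 11 of the 43 members, of which 7 were called in RSGL against control. Of all 43 members 21 were called higher and 3 lower, and of all tested genes 27.2% and 27.6%.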

How the data were processed

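RNA was sequenced in 9 libraries, 3 per group, from 1 µg of RNA each. DESeq2 1.16.1, featureCounts 1.5.0-p3 and HISAT2 2.0.5 are named in the submitters' processing notes, with no roles. Per the file headers, the authors' deposited values are FPKM per gene, with positions on GRCh38 sequences. For depth, FPKM times gene length was divided by each library's smallest step, and of the results under 300 fragments 100% were whole to within 0.01.

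Genes that reached 1 FPKM in 3 or more libraries were tested as log2(FPKM + 1), which understates changes of low genes. The pseudocount was 1. A model with 1 term per group over all 9 libraries was fitted in R 4.3.3 with limma 3.58.1 (trend and robust options of its empirical Bayes step, statmod 1.5.0). Benjamini-Hochberg adjustment ran over every tested gene, and "called", "rose" and "fell" mean an adjusted p under 0.05. Intervals are 95% intervals of the model. The script was tested on simulated data.

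Members and lists were chosen with earlier results of these data known. Values per library were given for members called at a difference of at least 0.5 without overlap, and for MAP1LC3B, SQSTM1, ULK1 and BECN1. ATG16L1 was added for its placement. From each further list the 3 largest called differences were named, with ATF4, DDIT3, TFEB, TFE3 and FOXO3. Alternatives changed the pseudocount, filter, scaling, model options and libraries.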

Additional observations from a re-analysis of the deposited data

How the results depend on the processing

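Of the 24 members called in RSGL against control, 19 kept the call under all 18 alternatives, of which 9 left out 1 library, and 0 of the 24 changed sign. Members called higher numbered 17 to 22, and 18 to 21 with 1 library left out. Members called lower numbered 3, 2 to 4 with 1 library left out, and 5 with limma-voom on recovered fragments, where ATG14 and ATG2B were added. In RSGL against BSGL, members called lower numbered 4, and 1 to 4 with 1 library left out.

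The call of ATG3 was lost without any 1 library other than RSGL replicate 3 (adjusted p up to 0.146). That of RB1CC1 was lost without control replicate 1 or 3 or RSGL replicate 1 or 2 (up to 0.115), and that of ATG12 without control replicate 1 or RSGL replicate 1 or 3 (up to 0.0824). ATG2A lost it without control replicate 3 or RSGL replicate 2 (up to 0.0571), and BECN1 without control replicate 2 or 3, BSGL replicate 1, or RSGL replicate 2 or 3 (up to 0.137). PIK3R4 (adjusted p = 0.0161) and ATG16L1 (0.0261) gained a call without RSGL replicate 1, as did ULK2 (0.042) and ATG14 (0.0264) without RSGL replicate 3. The differences of BNIP3, TFE3 and TEX264, not called, changed sign: BNIP3 gave -0.10 to 0.0066 with 1 library left out, above 0 without RSGL replicate 3, and TFE3 gave 0.023 under quantile scaling and -0.049 to 0.017 with 1 library left out (0.017 without control replicate 3, 0.0031 and 0.0099 without RSGL replicates 1 and 3). TEX264 gave -0.0078 under common-sum scaling and -0.015 to 0.068 with 1 library left out, below 0 without control or RSGL replicate 2. The causes were not tested.

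Same-numbered libraries did not deviate together: of 9 correlations of their deviations, from -0.212 to 0.121, 1 was above 0.1. With the replicate block, 21 members were higher and 2 lower in RSGL against control (BECN1 lost), 0 were called in BSGL against control, and 21 were higher and 4 lower in RSGL against BSGL, where RB1CC1 gained a call and SQSTM1 lost it (adjusted p = 0.0507). SQSTM1 also lost it with limma-voom (0.0879). The least covered member value rests on 116 fragments, those of MAP1LC3A in 1 control library.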
